A study of Mus musculus with 23 samples.

Results

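The levels of 10 genes of oxygen response and glucose metabolism (Slc2a1, Hk2, Pgk1, Ldha, Pdk1, Bnip3, Egln3, Vegfa, Ndrg1 and Ero1l) were followed in mouse embryonic stem cells (ESCs), out of 37310 gene identifiers in the count files. They were chosen by symbol, because hypoxia genes stood higher in replicate 1 of these libraries. That contrast is therefore given as a description, with no test. The libraries came from the feeder-free E14 line grown in serum with leukaemia inhibitory factor (LIF), and were prepared from rRNA-depleted total RNA 48 h after treatment began. The EtOH control was the Zbtb11lox/lox line with ERt2-Cre at the Rosa26 locus, treated with the carrier ethanol. The Zbtb11 KO was the same line treated with 250 nM 4-hydroxytamoxifen (4OHT), which lets Cre remove exon 3 of Zbtb11, a zinc finger transcription factor. The 4OHT control was Zbtb11WT/WT Rosa26WT E14 cells given 250 nM 4OHT, so its genotype and its treatment both set it apart from the EtOH control, and their parts cannot be told apart. Each group had 3 libraries, numbered replicates 1 to 3 in all groups, and the labels name no culture batch, passage or date. The paper's methods report that the same replicate, its number not given, lay apart from the others in all groups. They propose that technical variability may be behind this, and the paper's final gene list left that replicate out. ChIP-seq peak lists were read at the promoters of these genes. Zbtb11 was mapped in wild-type E14 cells (4 libraries with an antibody to the protein). FLAG-tagged Zbtb11 was mapped in a homozygous Zbtb11FLAG/FLAG knock-in E14 line (3 libraries), with FLAG ChIP in untagged wild-type E14 cells as the FLAG control.

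Hypoxia-inducible factor (HIF) is a pair of proteins, an oxygen-regulated alpha subunit and its constant partner Arnt. When oxygen is plentiful, prolyl hydroxylases of the Egln family mark the alpha subunit for destruction through Vhl. When oxygen is low the pair binds short DNA sites built on the core ACGTG or GCGTG and raises genes of glucose uptake, glycolysis, lactate production, mitophagy and vessel growth. ESCs in culture use glycolysis, and several of these genes are also expressed well when oxygen is not limiting.

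Reads assigned to genes ranged from 14301457 to 23876604 per library, and replicate 1 was the smallest library of each group. The share of reads outside annotated features was 29.87%, 29.12% and 31.62% in replicate 1 of the EtOH control, Zbtb11 KO and 4OHT control, against 25.31% to 29.42% in the other 6 libraries. What part this had in the differences below was not tested. The annotation has no gene row named Zbtb11, so the deletion was not followed here. Of the 10 pluripotency markers listed, 4 were highest and 3 lowest in replicate 1 of all 3 groups, beside 30.0% and 29.4% of all genes tested. Of 8 fibroblast markers 6 passed the filter on low counts, 3 of them highest in replicate 1 of every group and 1 lowest (Acta2, at a mean log2 difference of -0.67). Of the 6 lineage markers that passed the filter out of 12, 2 were highest in replicate 1 of every group, Gata6 at 0.87 and Gata4 at 0.57, and 1 was lowest, Pax6 at -0.76, with a median over the 6 of -0.01.

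The promoters of the members were read for the core letters of HIF sites. RefSeq promoters of build GRCm38.p6 were matched for 9 members, Ndrg1 being the exception, and the 250 bases before the first listed start of each were found once in build mm9. The core ACGTG or GCGTG, searched on both strands, lay in 8 of the 9 windows, and ACGTG in 7 of the 9. Among the first promoters of 27025 RefSeq genes, 16.6% held ACGTG, 28.2% GCGTG and 38.6% either. Among the 15733 of these windows with at least 50% G and C, as all 9 members' windows had, the shares were 20.4%, 41% and 51.9%. The members include textbook HIF targets, so these counts are a description of the chosen genes. The windows below are printed because they hold the most sites (Bnip3 and Ldha), belong to a further glycolytic gene that stood high in replicate 1 (Pgk1), lie under a Zbtb11 peak (Ero1l), or belong to the member that departed from the others (Pdk1). Capitals mark the cores on either strand, adjoining or overlapping cores forming a single run, and each window runs 5′ to 3′ on the gene's strand up to the base before the start.

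Bnip3, mm9 chr7:146101190-146101439, minus strand: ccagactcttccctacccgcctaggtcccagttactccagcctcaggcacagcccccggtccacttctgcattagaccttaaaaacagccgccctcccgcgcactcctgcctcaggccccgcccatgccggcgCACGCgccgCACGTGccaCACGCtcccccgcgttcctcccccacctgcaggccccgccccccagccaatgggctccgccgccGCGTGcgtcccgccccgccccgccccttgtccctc

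Ldha, mm9 chr7:54100924-54101173, plus strand: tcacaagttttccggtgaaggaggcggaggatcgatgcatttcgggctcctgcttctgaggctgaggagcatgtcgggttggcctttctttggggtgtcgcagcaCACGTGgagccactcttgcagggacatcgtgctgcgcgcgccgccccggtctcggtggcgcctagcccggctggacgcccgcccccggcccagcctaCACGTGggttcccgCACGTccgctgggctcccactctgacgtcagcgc

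Pgk1, mm9 chrX:103382189-103382438, plus strand: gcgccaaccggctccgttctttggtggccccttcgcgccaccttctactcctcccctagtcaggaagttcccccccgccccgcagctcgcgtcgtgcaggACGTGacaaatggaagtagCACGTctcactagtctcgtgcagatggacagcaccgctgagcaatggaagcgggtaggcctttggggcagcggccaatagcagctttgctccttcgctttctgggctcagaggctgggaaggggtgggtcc

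Ero1l, mm9 chr14:45938248-45938497, minus strand: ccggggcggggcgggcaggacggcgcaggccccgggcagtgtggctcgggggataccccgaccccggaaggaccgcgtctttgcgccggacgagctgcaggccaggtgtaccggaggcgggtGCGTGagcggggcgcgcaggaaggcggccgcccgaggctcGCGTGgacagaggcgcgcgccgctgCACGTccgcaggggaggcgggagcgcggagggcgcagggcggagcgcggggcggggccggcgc

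Pdk1, mm9 chr2:71711031-71711280, plus strand: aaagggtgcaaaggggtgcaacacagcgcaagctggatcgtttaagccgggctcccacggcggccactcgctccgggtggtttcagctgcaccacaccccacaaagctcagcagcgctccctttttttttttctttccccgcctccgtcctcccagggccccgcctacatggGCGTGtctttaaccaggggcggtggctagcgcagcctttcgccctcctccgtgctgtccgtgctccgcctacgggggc

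The Bnip3 window held 2 ACGTG and 3 GCGTG matches, and the Ldha window held 5 ACGTG matches. A run of CACGTG, seen in both windows, reads the same on both strands and so counts as 2 matches. Pgk1 had 2 ACGTG matches, at -150 to -146 and at -131 to -127 from the start. Ero1l had 1 ACGTG and 2 GCGTG matches in a window of 80.8% G and C. In Pdk1 a GCGTG at -78 to -74 was the only match. Slc2a1 and Hk2 had 2 matches each and Egln3 had 1, whereas the first Vegfa window had none, which says only that these letters are not in those 250 bases.

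Expression is given as CPM, the count of a gene relative to all reads on genes of its library after edgeR's TMM scaling. Compared between genes per length of exon, as RPKM (CPM divided by exon length in kilobases) averaged over the 9 libraries, Ldha was highest at 328, followed by Slc2a1 at 239, Pgk1 at 172, Hk2 at 78.1 and Bnip3 at 57.7. Pdk1 at 20.1, Ero1l at 19.9, Egln3 at 14.4 and Vegfa at 14.1 RPKM formed a middle group whose ranges over the libraries overlapped (16.9 to 23 for Pdk1, 11.2 to 34.9 for Ero1l, 7.33 to 24.1 for Egln3 and 11.2 to 22.4 for Vegfa). Ndrg1 was lowest, at 4.3 RPKM. All 10 members passed the filter of more than 1 CPM in at least 3 libraries.

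Glucose uptake and the glycolytic steps came first. Slc2a1 (4:118781316-118809935, plus strand, mm9) encodes the glucose transporter GLUT1. It stood at 886, 562 and 659.8 CPM in replicates 1, 2 and 3 of the EtOH control, at 829, 401 and 598 in the Zbtb11 KO and at 1002, 467 and 738 in the 4OHT control. Replicate 1 was the highest and replicate 2 the lowest library in every group. Replicate 1 exceeded the mean of replicates 2 and 3 by 1.46-fold, 1.69-fold and 1.71-fold in the 3 groups, taken in that order here and below as a fold on the log2 CPM scale.

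Hk2 (6:82675019-82724448, minus strand) encodes hexokinase 2, which phosphorylates glucose as it enters the cell. Its 3 replicates were at 549, 494 and 500.003 CPM in the EtOH control, 481, 381 and 446 in the KO, and 523, 351 and 468 in the 4OHT control. The order of replicates matched that of Slc2a1 but the differences of replicate 1 were small, at 1.1-fold, 1.17-fold and 1.29-fold. Pgk1 (X:103382439-103399038, plus strand), phosphoglycerate kinase 1 of an ATP-yielding step, was at 499, 308 and 299 CPM, then 484, 236 and 291, then 689, 298 and 367. Its replicate 1 was clear of the other libraries in each group, by 1.65-fold, 1.85-fold and 2.08-fold. Ldha (7:54096845-54110997, plus strand) makes the lactate dehydrogenase subunit that turns pyruvate into lactate. It was at 1061, 865 and 909.7 CPM in the EtOH control, 1061, 704 and 896 in the KO and 1390.1, 768 and 1134 in the 4OHT control, the most abundant of the members in CPM. Replicate 1 was again the highest, by 1.2-fold to 1.49-fold.

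At the mitochondrion, Bnip3 (7:146082519-146101202, minus strand) encodes a receptor on the outer membrane that marks mitochondria for autophagy. Its values were 202, 98.5 and 120.1 CPM in the EtOH control, 176, 58.3 and 84.4 in the KO and 222, 84 and 130.2 in the 4OHT control. All 3 replicate 1 libraries lay above all 6 others, and the fold was 1.86, 2.51 and 2.12. Pdk1 (2:71711281-71741915, plus strand) encodes pyruvate dehydrogenase kinase 1, which shuts pyruvate out of the mitochondrial oxidation route. It read 144, 167 and 171 CPM in the EtOH control, 154, 132 and 151 in the KO and 132, 175 and 179 in the 4OHT control. Replicate 1 was the lowest library of both controls, at 0.853-fold and 0.743-fold of the others, and the highest in the KO, at 1.09-fold. Pdk1 was the only member whose replicate 1 was not the highest library in all groups.

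Egln3 (12:55279968-55304847, minus strand) encodes a HIF prolyl hydroxylase that is itself a HIF target. Its replicates were at 51.4, 33 and 40.3 CPM in the EtOH control, 49.6, 20 and 30.9 in the KO and 64, 19.5 and 37.5 in the 4OHT control. In every group replicate 2 was lowest, and replicate 1 stood above the other libraries by 1.41-fold, 1.99-fold and 2.36-fold. Vegfa (17:46153942-46169326, minus strand), the growth factor that drives vessel formation, was at 75, 58 and 52.8 CPM, then 64.2, 49.5 and 47.9, then 96.2, 50.4 and 52.5. Replicates 2 and 3 of Vegfa were close to each other in all groups, and replicate 1 was 1.36-fold, 1.32-fold and 1.87-fold higher.

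Ndrg1 (15:66760883-66801202, minus strand), a cytoplasmic protein induced by hypoxia and other stress, gave the widest differences. It read 44, 18.1 and 21.4 CPM in the EtOH control, 33, 11.1 and 19.2 in the KO and 69.5, 15.9 and 22.7 in the 4OHT control. Replicate 1 was 2.23-fold, 2.25-fold and 3.65-fold above the mean of the others. Ero1l (14:45902879-45938237, minus strand) encodes the oxidase that renews protein disulfide isomerase in the endoplasmic reticulum (ER). Its values were 132, 63.5 and 70.4 CPM, then 117, 51.6 and 69.4, then 149.7, 48.2 and 66.9, so that replicate 1 was 1.98-fold, 1.95-fold and 2.63-fold above the others.

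**Figure D1:**
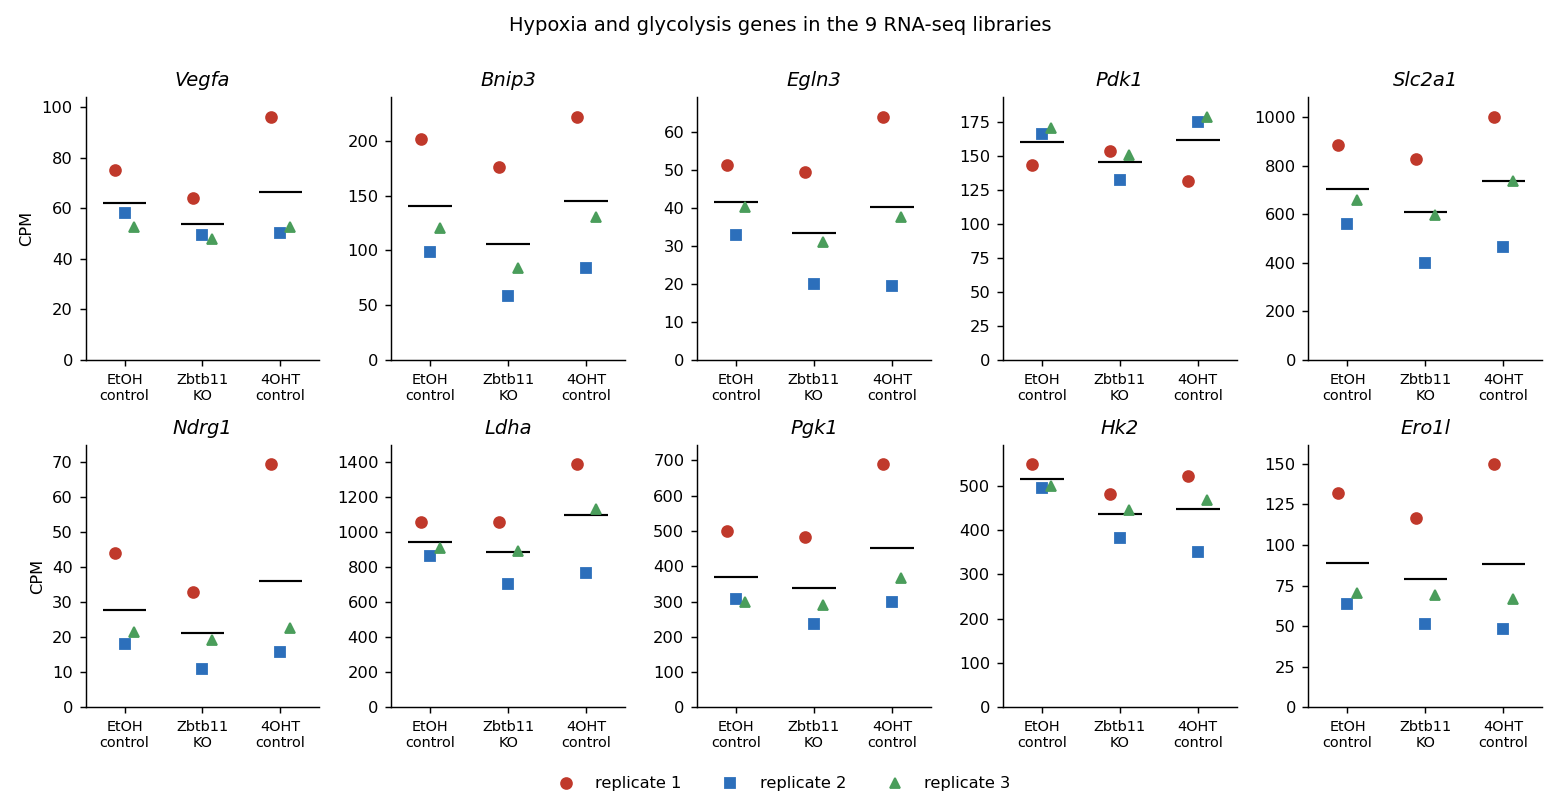
CPM (y axis, from 0) of the 10 genes in each library of the 3 groups, with points for replicates 1, 2 and 3 and a bar for the group mean (n = 3). Replicate 1 is the highest point of each group for 9 genes, and the lowest of both controls for Pdk1.

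Counted over the members, replicate 1 was the highest library of all 3 groups for 9 of 10. The same held for 30.0% of all 14346 genes tested, and replicate 1 was lowest in all 3 groups for a further 29.4%, so a shift of replicate 1 was common among genes in both directions. Since the members were chosen on this contrast, nothing is read from their count. The median log2 difference of replicate 1 over the members was 0.79, a fold of 1.73, against 0.01 over all genes tested. A difference above 1.5-fold in every group was seen for 4 members, Ndrg1, Ero1l, Bnip3 and Pgk1, and for 6.68% of genes tested. Just inside the pattern stood Hk2, at a mean fold of 1.18, and just outside it Pdk1, at 0.884. Averaged over the groups the folds were 2.64 for Ndrg1, 2.17 for Ero1l, 2.15 for Bnip3, 1.88 for Egln3, 1.85 for Pgk1, 1.61 for Slc2a1, 1.49 for Vegfa and 1.33 for Ldha. By group the median over the members was 0.52 in the EtOH control, 0.82 in the Zbtb11 KO and 0.98 in the 4OHT control, in log2 units.

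**Figure D2:**
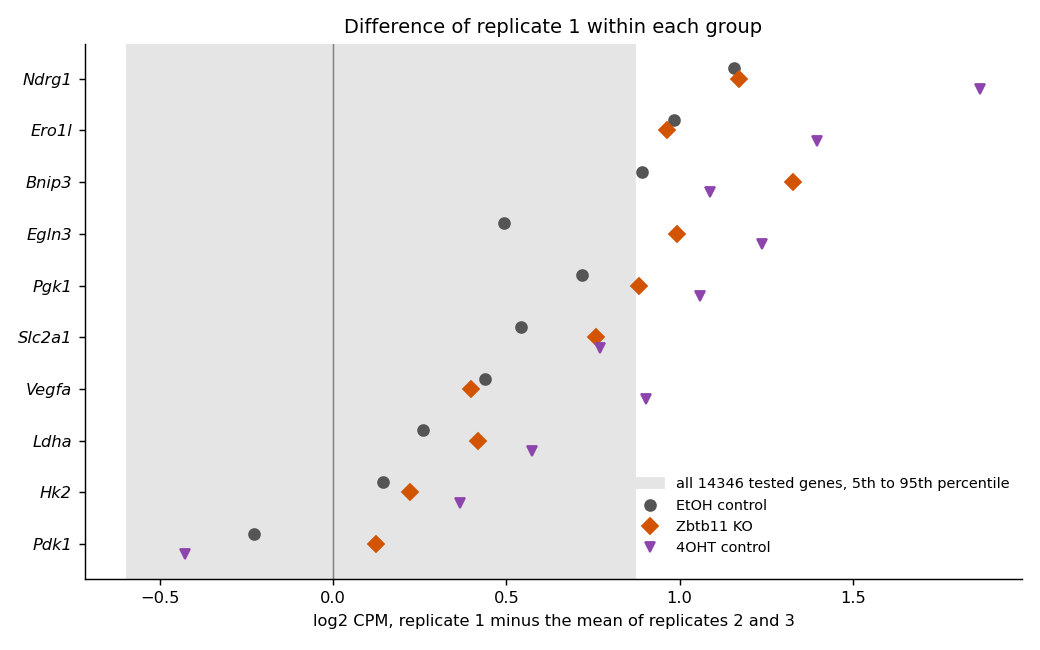
Log2 CPM of replicate 1 minus the mean of replicates 2 and 3 (x axis) for each gene and group, with the grey band spanning the 5th to 95th percentile of the mean difference over all 14346 genes tested. Ndrg1 in the 4OHT control reaches 1.87, and only Pdk1 has points below 0, at -0.23 and -0.43 in the controls.

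The rest of the pathway was read in lists of symbols, which were chosen with earlier results of these data known. Their counts on this contrast are therefore a description too. Of all genes tested, 30.0% were highest in replicate 1 of all groups and 29.4% lowest, the shares to set beside the counts here and in the next paragraph. Of 31 other hypoxia targets that passed the filter (32 listed), 19 were highest in replicate 1 of all groups and 3 lowest, with a median log2 difference of 0.53. The extracellular matrix enzyme Loxl2, the mTOR inhibitor Ddit4, the repressor Bhlhe40, the carbonic anhydrase Car12 and the collagen prolyl hydroxylase P4ha1 led, at mean log2 differences of 1.59, 1.55, 1.47, 1.46 and 1.31. The lipase inhibitor Angptl4 at -0.67, the histone demethylase Kdm3a at -0.43 and the co-activator binding protein Cited2 at -0.12 were lowest in replicate 1 of every group, although each is a known hypoxia target. Among 22 other glycolysis genes that passed the filter (24 listed), 16 were highest in replicate 1 of all groups, 1 lowest, and the median was 0.50. Aldoc, an aldolase, led at 1.62, followed by the enolase Eno2 at 1.28, the lactate dehydrogenase subunit Ldhb at 1.25, hexokinase Hk1 at 1.09 and the glucose phosphate isomerase Gpi1 at 0.80. The monocarboxylate transporter Slc16a1, at -0.15, was the glycolysis gene that was lowest throughout.

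Components of the HIF system itself did not share a direction. Of 9 genes, 4 were highest in replicate 1 of every group and 3 lowest, with a median log2 difference of -0.01. The hydroxylase Egln1 at 1.17 and Hif3a at 1.03, both known to be induced by HIF, stood high, as did Vhl at 0.16 and Arnt at 0.08. The alpha subunits Hif1a at -0.39 and Epas1 at -0.83 and the hydroxylase Egln2 at -0.30 were lowest in replicate 1. Of 10 genes of pyruvate dehydrogenase and its regulators, the kinases Pdk4 at 1.40 and Pdk2 at 0.95 and the phosphatase Pdp2 at 0.28 were highest in replicate 1, unlike Pdk1. The kinase Pdk3, at 0.19, was highest there in 2 groups. The subunits Pdhx at -0.48, Pdhb at -0.26, Dld at -0.15, Pdha1 at -0.11 and Dlat at -0.10 were lowest. Integrated stress response genes (9 genes, median -0.34) were lowest in replicate 1 for 5, with Chac1 at -1.24 and Trib3 at -0.88, while Ddit3 was highest, at 1.04. ER chaperone genes (8 genes, median -0.25) were lowest for 6, with Xbp1 at -0.53, whereas the ER oxidase Ero1l stood at 1.11.

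**Figure D3:**
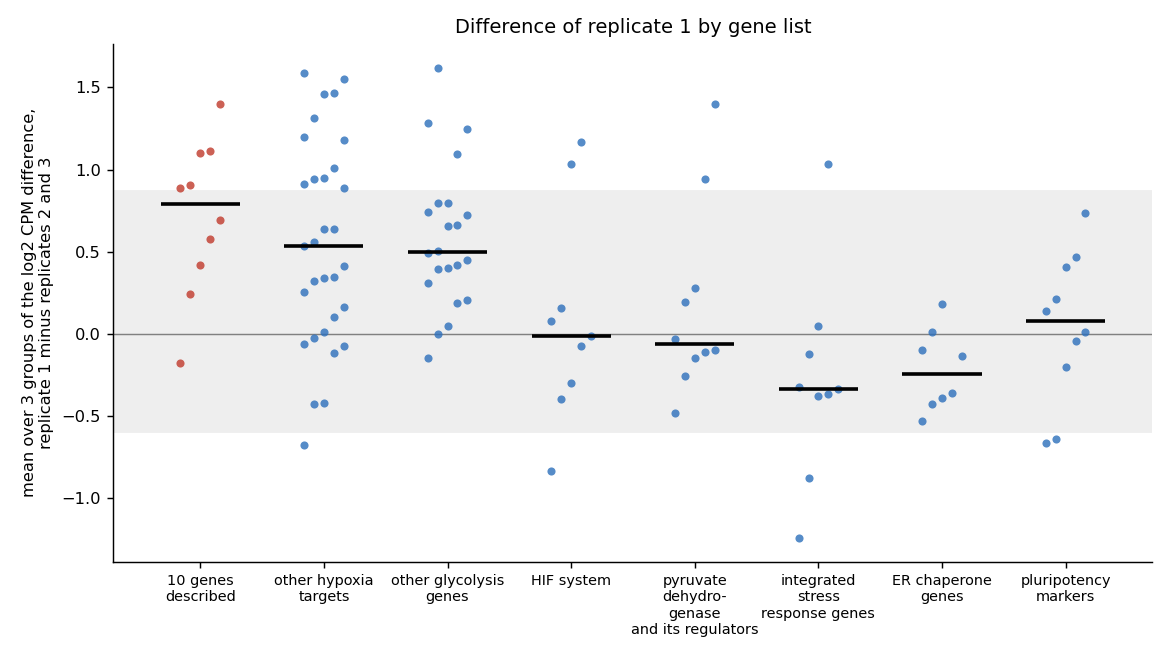
Mean over the 3 groups of the log2 CPM difference of replicate 1 from replicates 2 and 3 (y axis) for each gene (point) of the lists along the x axis, with bars at list medians and a grey band for the 5th to 95th percentile of all genes tested. Medians run from 0.79 for the 10 genes described to -0.34 for the integrated stress response genes.

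Across the 9 libraries, Pearson's r between pairs of members ran from -0.53 to 0.98 over all 45 pairs, with a median of 0.90, and from 0.66 to 0.98 over the 36 pairs without Pdk1. The members were chosen because replicate 1 stood apart from replicates 2 and 3, and that same contrast enters these values, so they only describe the chosen genes in libraries that share replicate numbers and treatments. With the mean profile of the members (each gene's log2 CPM centred), Bnip3 and Ndrg1 had r of 0.98 and Pdk1 had r of -0.27. Of 9218 further genes with a mean of at least 10 CPM, 26 had r above 0.95, and the 10 most alike over the 9 libraries were Rnf19a (0.992), Ndufa4l2 (0.989), Higd1a (0.987), Ccng2 (0.983), Plod2 (0.981), Kdm4b (0.979), Bnip3l (0.978), Bhlhe40 (0.977), Atxn10 (0.972) and Alkbh5 (0.971). Replicate 1 of Ndufa4l2 stood 5.36-fold above the others on average, further than any member, and that of Atxn10 1.18-fold.

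Replicates 2 and 3 also differed, and this contrast was not used to choose the genes. Each replicate number had 1 library per group, and same-numbered libraries were taken as paired. Correlations showed this pairing less clearly for replicates 2 and 3 than for replicate 1. The p-values therefore measure how steady a difference was over the groups, and not the spread between separate cultures. Fitted over all 9 libraries with terms for group and replicate, 5 of the 10 members were higher in replicate 3 than in replicate 2 by edgeR's quasi-likelihood test, and none was lower. Of all genes tested 1.75% passed, and 0.829% of all genes tested passed and were higher in replicate 3. Slc2a1 was higher by 0.49 ± 0.07 in log2 (SE, adjusted p = 0.0011), Bnip3 by 0.48 ± 0.08 (adjusted p = 0.00219) and Egln3 by 0.59 ± 0.12 (adjusted p = 0.0126). Ero1l was higher by 0.34 ± 0.08 (adjusted p = 0.035) and Ldha by 0.32 ± 0.08 (adjusted p = 0.0353). Ndrg1, at 0.50 ± 0.13, missed the threshold with adjusted p = 0.0581, and Hk2 (0.21), Pgk1 (0.18), Pdk1 (0.08) and Vegfa (-0.04) did not pass. The median over the members was 0.33, against 0.00 over all genes tested. By group, the differences of the members called were larger in the KO and the 4OHT control than in the EtOH control, for example 0.53, 0.63 and 0.29 for Bnip3, a gap between groups that was not tested. Without the Zbtb11 KO libraries only Bnip3 passed (background 0.327%), without the EtOH control libraries 4 members (0.450%), and DESeq2 called 3 (1.33%). Of the other hypoxia targets 6 were higher in replicate 3 than in replicate 2 and none lower, namely Ddit4 (0.80 ± 0.09, adjusted p = 0.000117), Plod2, Loxl2, P4ha1, Stc2 and Fam162a. Slc16a3, the lactate exporter, was the only call among other glycolysis genes, at 0.44 ± 0.09 (adjusted p = 0.0148). No gene of the HIF system was called (1 of 9 had an unadjusted p under 0.05), nor was any ER chaperone gene or any gene of pyruvate dehydrogenase and its regulators (none of them under 0.05 unadjusted). Cell type markers and stress genes were also called in this contrast. Of the 10 pluripotency markers only Fgf4, Klf4, Dppa5a and Esrrb were called, lower in replicate 3 at -0.33, -0.34, -0.30 and -0.23. Lin28a (0.21) and Pou5f1 (0.05) lay on the other side, and Sox2 (-0.04) and Tdgf1 (-0.02) near 0, none of them called. The smooth muscle actin Acta2 was the only call among 6 fibroblast markers tested, higher by 1.1 ± 0.12 (adjusted p = 5.86e-05). Thy1 (-0.17) and Pdgfra (-0.10) of that list lay on the other side. Pax6 and Otx2 were the only calls among 6 lineage markers tested, higher by 0.57 and 0.45 (adjusted p = 0.0273 and 0.0203). The stress genes Atf3 and Asns were lower, at -0.59 and -0.20 (adjusted p = 0.0139 and 0.0451). What part these had in the members' differences was not tested.

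**Figure D4:**
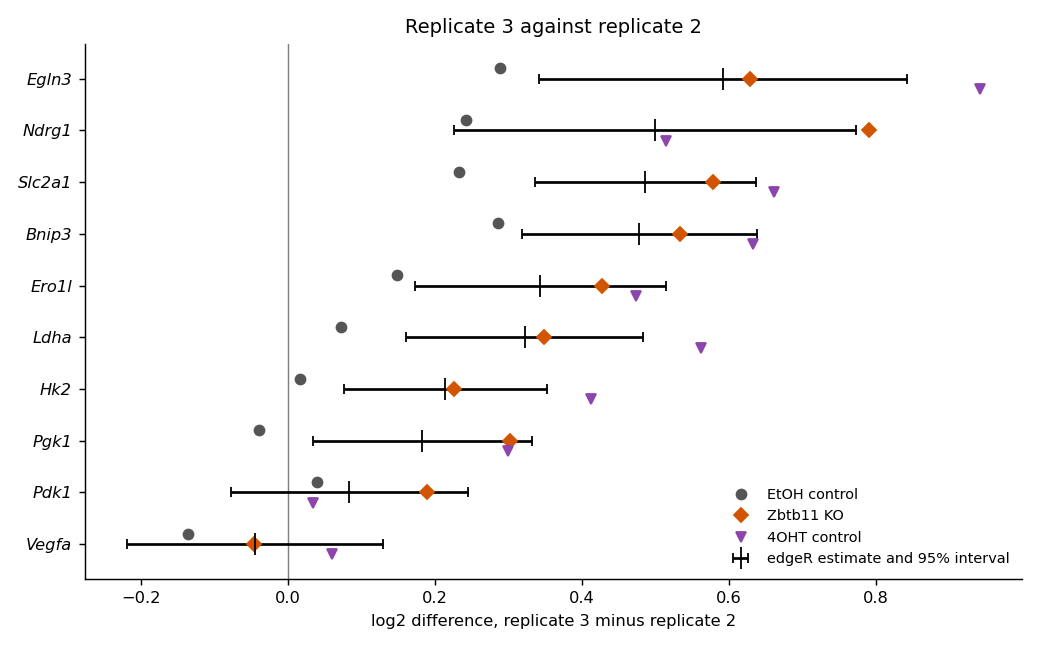
Log2 difference of replicate 3 from replicate 2 (x axis) for each gene, with the edgeR estimate and its 95% interval in black and the difference in each group as coloured points. The intervals of 8 genes lie above 0, and those of Pdk1 and Vegfa cross it.

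The effect of losing Zbtb11 was asked first against the EtOH control, the same line. None of the 10 members passed the threshold by edgeR's quasi-likelihood test on the 9 libraries without a term for the replicate, where 0.899% of genes tested passed, and none had an unadjusted p under 0.05. All 10 estimates were below 0, with a median of -0.20 against -0.00067 over all genes. DESeq2 called none of the 10 either, in this or the 2 comparisons that follow. The intervals were wide in this fit. Ndrg1 lay within -1.76 to 0.95 (95% interval around -0.40) and Bnip3 within -1.46 to 0.66 (around -0.40), whereas Hk2 at -0.24 was held within -0.57 to 0.09 and Pdk1 at -0.14 within -0.43 to 0.15. Within replicate numbers the KO was lower than the EtOH control for 9 members in replicate 1 and for 10 in each of replicates 2 and 3, with median differences of -0.14, -0.38 and -0.15. The same held for 49.8%, 51.6% and 49.9% of all genes tested in replicates 1, 2 and 3. Most members varied together over the libraries, so these are not counts of independent genes. Over all 3 replicates 9 members were lower each time (all but Pdk1), as were 18.8% of genes tested, though for Ldha the difference in replicate 1 was -0.00039.

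The replicate number was then used as a block, as the numbers were taken to pair the libraries. In that edgeR fit Bnip3 fell by 0.48 ± 0.08 in log2 in the KO (95% interval -0.64 to -0.32, adjusted p = 0.000318). Its differences in replicates 1, 2 and 3 were uneven, at -0.20, -0.76 and -0.51, those of replicates 1 and 2 lying outside that interval. Bnip3 was the only member called, where 2.25% of genes passed and 1.79% were lower. Hk2 was at -0.25 ± 0.07 (adjusted p = 0.0598) and Slc2a1 at -0.25 ± 0.07 (adjusted p = 0.103). Egln3, at -0.38 ± 0.12, and Ndrg1, at -0.42 ± 0.13, had adjusted p of 0.144 and 0.132. Bnip3, Egln3, Slc2a1 and Pdk1 were called, all lower, in the block fit of replicates 2 and 3 alone, where 2.27% of genes passed, and no member was called in the fit with neither replicate 1 nor a block, where 1.50% of genes passed. The block fit called 1 gene of the HIF system (Egln1, -0.32 ± 0.08, adjusted p = 0.0413), 1 other hypoxia target (Ak4, an adenylate kinase, -0.23 ± 0.06, adjusted p = 0.0435) and 2 other glycolysis genes, Slc16a3 (-0.45 ± 0.09, adjusted p = 0.00508) and the phosphofructokinase Pfkp (-0.27 ± 0.06, adjusted p = 0.00728), all lower in the KO. None of these lists had a call without the block, where 1 gene of the 3 lists had an unadjusted p under 0.05, and no gene of pyruvate dehydrogenase and its regulators was called in either fit.

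Against the 4OHT control, cells without the floxed allele and Cre, no member was called without the block, where 6.45% of genes passed and no member had an unadjusted p under 0.05. All 10 estimates were again below 0, from -0.76 for Ndrg1 to -0.04 for Hk2, with a median of -0.29 against 0.00 over all genes. With the block 6 members were lower in the KO and none higher, beside 34.9% of genes tested that passed and 18.1% that were lower. Bnip3 was at -0.49 ± 0.08 (adjusted p = 4.45e-05), Pgk1 at -0.39 ± 0.07 (adjusted p = 0.000218), Ndrg1 at -0.65 ± 0.13 (adjusted p = 0.000427), Ldha at -0.29 ± 0.08 (adjusted p = 0.00604), Slc2a1 at -0.27 ± 0.07 (adjusted p = 0.00647) and Vegfa at -0.26 ± 0.08 (adjusted p = 0.0221). Egln3 (-0.23), Pdk1 (-0.15), Ero1l (-0.08) and Hk2 (-0.03) did not pass. Without replicate 1 and with no block Pgk1 and Pdk1 were called, at -0.34 and -0.33 (adjusted p = 0.0442 and 0.00832), where 18.7% of genes passed. Blocked on replicates 2 and 3 alone, 6 members were again called (background 29.5%), but Vegfa was lost, at -0.09 (adjusted p = 0.393), and Pdk1 gained, at -0.33 (adjusted p = 0.000336). Ndrg1 was still called there but moved to -0.36 (adjusted p = 0.0219), so the sizes for Vegfa and Ndrg1 depended on replicate 1.

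The controls were also compared with each other, as the size of difference seen without Zbtb11 loss. No member was called without the block, where 4.05% of genes passed, and none had an unadjusted p under 0.05, with estimates from -0.20 for Hk2 to 0.36 for Ndrg1. With the block Pgk1 was higher in the 4OHT control by 0.24 ± 0.07 (adjusted p = 0.0142) and Hk2 lower, at -0.22 ± 0.07 (adjusted p = 0.0147), where 33.6% of genes passed, 17.0% higher and 16.5% lower. Without replicate 1 the block fit no longer called Pgk1, at 0.13 (adjusted p = 0.211), and called Hk2, Egln3 and Ero1l (background 27.6%), all lower in the 4OHT control, at -0.29, -0.40 and -0.23 (adjusted p = 0.00597, 0.00842 and 0.0271). Bnip3, at 0.01 with an interval of -0.15 to 0.17, did not pass. The comparisons share libraries, so for Bnip3 the KO stood at -0.48 against the EtOH control and -0.49 against the 4OHT control, and for Pgk1 at -0.16 and -0.39. In the HIF system Vhl was lower in the 4OHT control than in the EtOH control in the fit without the block, at -0.63 ± 0.11 (adjusted p = 0.0164). It was higher in the KO than in the 4OHT control, at 0.63 ± 0.11 (adjusted p = 0.0099), with -0.01 between the KO and the EtOH control. Cited2 was higher in the 4OHT control than in the EtOH control by 0.42 ± 0.08 (adjusted p = 0.0299) and lower in the KO than in the 4OHT control, at -0.62 ± 0.09 (adjusted p = 0.00309). Arnt2 and Ak4 were also lower in the KO than in the 4OHT control, at -0.47 and -0.46. No other glycolysis gene was called in either comparison without the block (2 and 3 of 22 had an unadjusted p under 0.05). With the block, 11 of 22 passed in the KO against the 4OHT control, 8 of them lower. Of all genes tested 34.9% passed there and 18.1% were lower.

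**Figure D5:**
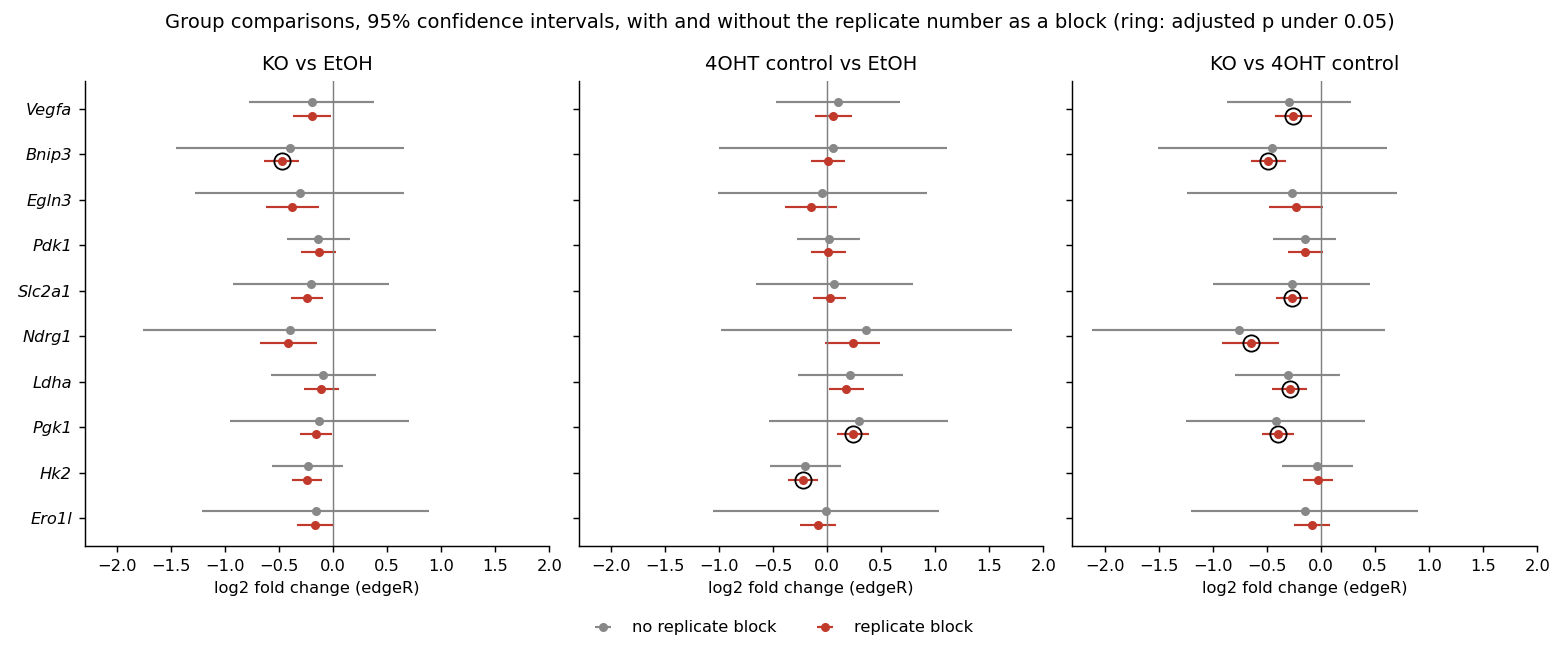
Log2 fold change by edgeR (x axis) with 95% confidence intervals for each gene in the 3 group comparisons, without the replicate block in grey and with it in red, rings marking adjusted p under 0.05. The block narrows the intervals, for Ndrg1 in the KO against EtOH from -1.76 to 0.95 to -0.68 to -0.15. It also moves some estimates, such as that of Ndrg1 in the KO against the 4OHT control, from -0.76 to -0.65.

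Peaks of Zbtb11 itself were then looked for at these promoters. A promoter ran from 2 kb upstream to 500 bases downstream of any annotated transcript start, and the 7500 peaks found both with the Zbtb11 antibody and with FLAG were used. Hk2 and Ero1l had such a peak, 2 of 10 members, beside 31.1% of genes tested, so nothing is read from the count. No member had a peak of the FLAG control cells at its promoter. At Hk2 the peak (6:82722734-82723933) was centred 24 bases past an internal transcript start and 1114 bases past the start of the gene row, so it was lost when only the latter start was used. Its normalised coverage was 119, 152, 170.1 and 119 in the 4 Zbtb11 libraries, 140.1 ± 25.5 (SD, n = 4), and 49.1, 71.6 and 79.3 with FLAG, 66.7 ± 15.7 (SD, n = 3). It ranked 1987 of 7500 by the Zbtb11 libraries and 3696 by the FLAG libraries. The Ero1l peak (14:45937839-45939038), centred 202 bases before the start and covering the window printed above, was weak with the antibody, at 18.9, 25.6, 35.7 and 19.5, and was at 50.7, 58.5 and 49.7 with FLAG. Its ranks were 6819 and 4581 of 7500. The median over all consensus peaks was 71.3 and 65.6 for the antibody and FLAG libraries. For the remaining 8 members the nearest consensus peak lay between 8414 bases (Pgk1) and 1289350 bases (Ndrg1) from a start. Of the other genes of the pathway, 4 of 9 in the HIF system (Egln1, Egln2, Hif1an and Vhl), 8 of 31 other hypoxia targets and 4 of 22 other glycolysis genes had a peak at the promoter. Neither Hk2 nor Ero1l was called in the KO against the EtOH control. In edgeR's block fit Hk2 was at -0.25 (adjusted p = 0.0598), close to the threshold, and Ero1l at -0.17 (adjusted p = 0.509). Bnip3, the member called with the block, had its nearest peak centre 151406 bases from a start. Whether peaks went with the KO differences was not tested.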

How the data were processed

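The 9 RNA-seq libraries were directional and paired-end, and the authors trimmed the reads, aligned them with STAR and counted them per gene with HTSeq, so the deposited values are raw counts. The identifiers match GENCODE vM1 on mm9. The authors aligned ChIP-seq reads to mm9 with Bowtie 1.1.2, keeping unique alignments, called peaks with MACS2 under a reproducibility threshold over replicates, and deposited DiffBind's normalised read coverage signal for 7500 consensus peaks (the exact scaling is not given in the sources used here) and peak positions with no score. Tool names and the build come from the submitters' processing notes and the methods.

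From the counts, genes with CPM above 1 in at least 3 libraries (14346 of 37310) were tested with edgeR 4.0.16 (R 4.3.3), using TMM scaling, the quasi-likelihood F test, two-sided, and Benjamini-Hochberg adjustment over all tested genes, at a threshold of 0.05. Log2 CPM used a prior count of 2. Labels give replicate numbers only. Deviations from group means correlated between same-numbered libraries with r from 0.43 to 0.82 in all 9 pairs, against -0.75 to 0.53 between others. All values below 0 involved replicate 1. Between replicates 2 and 3 the different-numbered pairs had r from 0.29 to 0.53, overlapping the 0.43 to 0.68 of same-numbered pairs. For these replicates the pairing was therefore in part an assumption. The numbers were taken to pair the libraries, and values blocked on them stand beside the results they change. DESeq2 1.42.0, other scalings, filters, and fits without a replicate were alternatives, and the code was tested on simulated data. The methods call the replicates biological, with nothing on whether cultures were separate, so p-values measure the spread between these libraries. Members and lists were chosen with earlier results of these data known. Genes named from lists were the up to 5 past the threshold with the smallest adjusted p in a group comparison, or the up to 5 with the largest difference of replicate 1 in each direction. For replicate 3 against 2 all calls in the lists were named, which was decided after their values were seen. The 10 most alike by Pearson's r over the libraries were also named. Exons of Bnip3, Ldha, Pgk1 and Ero1l matched other mm9 sites at 95% identity over 100 bases (BLAST+ 2.17.0). Such copies covered 67.42%, 26.26%, 70.81% and 55.44% of their exon bases, and RPKM used the full exon length, these stretches included. Annotated pseudogenes there held at most 22 reads per library, which does not show how many reads the members themselves lost to the copies. That loss was not tested. Exons of Slc2a1 and Ndrg1 overlap genes on the opposite strand. No column of the tables named a sample outside the series.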

Additional observations from a re-analysis of the deposited data

Results flagged for a closer look

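Pdk1 was set aside because replicate 1 departed in opposite directions between groups. In log2 CPM, replicate 1 minus the mean of replicates 2 and 3 was -0.23 in the EtOH control and -0.43 in the 4OHT control, below both other libraries each time, and 0.12 in the Zbtb11 KO, above both others. The difference between groups was not tested, and the members were chosen on this contrast. Its fellow kinases Pdk2 and Pdk4 were highest in replicate 1 of all 3 groups. The kinase Pdk3 was highest in 2 groups, its difference in the EtOH control being -0.01.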

How the results depend on the processing

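For the difference of replicate 1, 9 members were highest in all 3 groups under all 5 alternatives, and the median over the members ran from 0.60 to 0.96 when replicate 2 or 3 was left out. Calls depended mainly on how the replicate number was treated. With the replicate block the number of genes past the threshold went from 129 to 323 for KO against EtOH (66 higher and 257 lower, against 8 and 121), from 581 to 4815 for the 4OHT control against EtOH and from 925 to 5009 for KO against the 4OHT control, and the members called from 0 to 1, 2 and 6. Blocked on replicates 2 and 3 alone these were 322, 3914 and 4174 genes and 4, 3 and 6 members, not all of them the members called with replicate 1. Leaving out each replicate without a block gave 13 to 212, 13 to 2420 and 82 to 2645 genes, with the highest count each time without replicate 1, and 0 to 0, 0 to 0 and 0 to 2 members. DESeq2 called 1187 and 1469 genes, and fits of only the groups compared 171 and 570, for the 4OHT control against EtOH and KO against it. For replicate 3 against 2 (251 genes, 5 members), 509 genes passed with no filter and 422 from replicates 2 and 3 only. Leaving out a group gave 47 to 249 genes and 1 to 5 members, DESeq2 called 3 members and the robust fit 2. Promoter peaks were found at 1 member when only gene row starts were used, and at 2 otherwise.

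Estimates near 0 changed sign in places, none of them called. With each replicate left out, the 4OHT control against EtOH ran from -0.10 to 0.21 for Vegfa, -0.025 to 0.13 for Bnip3, -0.015 to 0.17 for Slc2a1 and -0.030 to 0.49 for Ndrg1, lowest without replicate 1, from -0.35 to 0.14 for Egln3, -0.020 to 0.074 for Pdk1 (-0.018 without replicate 3) and -0.21 to 0.092 for Ero1l (0.013 without replicate 3, and 0.00065 by library sizes). Blocked on replicates 2 and 3 it read -0.10 for Vegfa, -0.049 for Bnip3, -0.050 for Slc2a1 and -0.047 for Ndrg1. KO against the 4OHT control ran from -0.096 to 0.0091 for Hk2 and -0.23 to 0.066 for Ero1l, highest without replicate 1, and was 0.016 and 0.068 blocked on replicates 2 and 3. Vegfa in replicate 3 against 2 ran from -0.093 to 0.0088, highest without the EtOH control. The causes were not tested. With 3 libraries a group, differences smaller than the intervals given were not detectable.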
